A study of Mus musculus with 22 samples.

Results

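The mid-light comparison set 3 diet libraries against 2 control libraries, all from mouse liver cells collected at zeitgeber time (ZT) 6 h, across every gene of the count table. These 5 libraries were all of those labelled ZT6, of 22 in the series. Lights go on at ZT0 and off at ZT12. Diet mice ate CDA-HFD, a high-fat feed that lacks choline and supplies defined amino acids, used to produce steatohepatitis with scarring, and control mice ate chow. Feeding started at 8 weeks of age, and both groups were 20 weeks old. The growth protocol gives 12 weeks of feeding while another label gives 6 months, so its length is not settled. No strain, sex or isolation method is given in the sources used here, no genetic change is named, and the cells are labelled HSC. Whether every library is a separate animal is not labelled, so the p-values weigh differences against a library-to-library spread that may be technical. The other times, ZT0, ZT12 and ZT18, served to ask what was particular to ZT6.

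HSC is the usual short form for hepatic stellate cells, the retinoid-storing cells beside the liver sinusoid that make scar matrix when activated. The sinusoid itself is lined by endothelial cells and patrolled by Kupffer cells, the resident macrophages of the liver. Secretory cells fold new proteins in the endoplasmic reticulum (ER) with chaperones such as BiP and GRP94. When unfolded protein builds up, the unfolded protein response (UPR) raises these chaperones through the factors ATF6 and XBP1. Many transcripts of the liver also cycle daily, both through the core clock, in which BMAL1 and CLOCK drive their own repressors, and through feeding.

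The ZT6 libraries held 19754805 to 28288127 counts in genes, against 19754805 to 41665623 over all 22, and 22409 of 55367 listed genes were tested. A single entry, CT010467.1, held 19.1% to 21.6% of the counts in diet libraries and 16.7% to 17.5% in control libraries at ZT6. Over all 22 libraries its share ran from 9.98% to 21.7%. It was lowest at ZT18, with 9.98% to 10.5% in diet libraries and 10.5% to 13.8% in control libraries. The part of this in the comparisons with ZT18 was not tested. Levels are CPM, the counts of a gene over the TMM-scaled library total, and levels of different genes were compared only as TPM, which also divides by transcript length. Stellate cell markers were low in both groups. Lrat, the enzyme that stores retinol in stellate cells, reached 0.76, 0.8 and 0.575 TPM in diet libraries, against 1.47 and 1.61 TPM in control libraries. Stab2, a scavenger receptor of sinusoidal endothelium, reached 84.4, 126 and 107 TPM in diet libraries, against 1870 and 1730 TPM in control libraries. The defining stellate marker was thus near 0 while endothelial markers were abundant, so the cells are called by their label only. In bulk libraries, fewer cells of a type and less RNA per cell cannot be told apart.

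Under diet at ZT6, endothelial genes were lower and genes of lymphocytes, antigen presentation and bile duct epithelium were higher. A gene was called at an adjusted p under 0.05 in the quasi-likelihood test of edgeR (Benjamini-Hochberg), which held for 6752 genes, or 30.1% of those tested. Of these, 3316 were higher (14.8%) and 3436 lower (15.3%), while library size alone as the scaling gave 4585 higher and 2593 lower. The median log2 difference over all tested genes was 0.08. The comparison called 6719 genes at ZT0, 6641 at ZT12 and 6916 at ZT18, or 30%, 29.6% and 30.9%.

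All 30 tested endothelial markers fell, with a median log2 difference of -3.88, where 15.3% of all tested genes fell. Kdr, the main VEGF receptor, had 139, 210 and 198 CPM in diet libraries, against 3676 and 3507 CPM in control libraries. Every control library was far above every diet library for this gene (log2 difference -4.30 ± 0.21 SE, adjusted p = 7.35e-11). Mmrn2, an endothelial matrix protein, fell by 3.85 on the log2 scale, and the endothelial phosphatase gene Ptprb by 4.37. Of 16 angiocrine genes, through which endothelium instructs its neighbours, 12 fell and none rose, among them the BMP ligand Bmp2 (log2 difference -4.29) and the Notch ligand Dll4 (-3.63). The basement membrane collagens Col4a1 and Col4a2 fell by 3.37 and 3.23 on the log2 scale. Timp3, an inhibitor of matrix proteases, had 79.1, 96.8 and 74.5 CPM in diet libraries, against 1456 and 1287 CPM in control libraries. Genes of lipid handling in capillaries fell too, including Gpihbp1, which anchors lipoprotein lipase (log2 difference -3.51), and the fatty acid binder Fabp4 (-3.19). Among the 10 genes with the largest falls were Cyp26b1, which breaks down retinoic acid, Ehd3, a membrane recycling protein, and Ccn4. Cyp26b1 had 2.88, 3.01 and 1.32 CPM in diet libraries, against 330 and 35.3 CPM in control libraries, which thus differed widely from each other.

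All 28 T cell markers rose, with a median of 2.75, and so did 21 of 22 genes of natural killer (NK) and cytotoxic cells, with a median of 3.57. The checkpoint receptor gene Tigit had 45.3, 65.2 and 47.4 CPM in diet libraries, against 0.52 and 0.167 CPM in control libraries. It showed the highest log2 difference of all genes that met the naming rule (7.22 ± 0.70 SE, adjusted p = 8.68e-08). Gzmk, a granzyme, followed at 7.13 and Eomes, a factor of effector and memory T cells, at 6.75. Pdcd1, which encodes the checkpoint receptor PD-1, and the T and NK adhesion gene Crtam stood among the same 10 genes. All 12 MHC class II genes rose, with a median of 3.01. H2-Ab1, a class II chain, had 3100, 3660 and 3278 CPM in diet libraries, against 294 and 364 CPM in control libraries. Of 21 B and plasma cell genes, 17 rose and 1 fell, including the IgM heavy chain Ighm (log2 difference 2.25). Of 18 bile duct genes, 14 rose and none fell, including Epcam (2.83) and Cdh1 (2.85).

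Other programmes moved less, and their counts stand beside 14.8% of all tested genes that rose and 15.3% that fell. Of 28 cytosolic ribosomal protein genes, 24 rose and none fell, with a median of 0.84. Of 28 cell cycle genes, 21 rose and 2 fell. Ccnb2, a mitotic cyclin, had 26.6, 21.5 and 19.5 CPM in diet libraries, against 8.28 and 7.7 CPM in control libraries, while Mcm3, a subunit of the replication helicase, fell by 0.90 on the log2 scale. Of 24 cholesterol genes, 13 rose and 1 fell. Srebf2, the master factor of cholesterol synthesis, had 73.3, 74.5 and 69.9 CPM in diet libraries, against 35.6 and 31.2 CPM in control libraries. Of 25 immediate early genes, 16 rose and 1 fell, with Nr4a1 at 1071, 1055 and 977 CPM in diet libraries, against 254 and 132 CPM in control libraries. Of 16 collagen genes, 1 rose and 4 fell, a called share near the 30.1% of all tested genes. The plot of list medians sets these shifts beside the same lists at the other times.

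**Figure D1:**
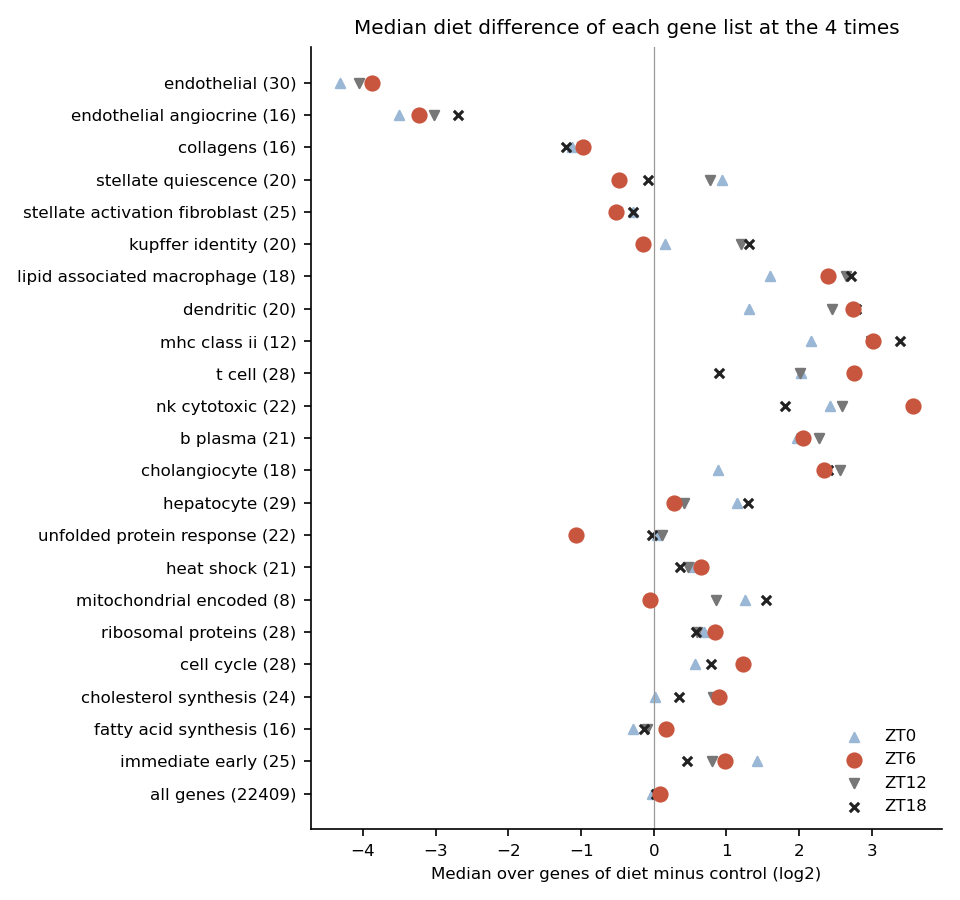
Median over the tested genes of each list (number in brackets) of the log2 difference of diet minus control, at ZT0, ZT6, ZT12 and ZT18. The ER chaperone and UPR list lay at -1.07 at ZT6 and within 0.12 of 0 at the other times, while the endothelial list lay near -4 and the MHC class II list above 2 at each time.

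Across the 10874 genes whose mean log2 CPM reached 2, Pearson's r of the ZT6 log2 differences was 0.911 with those at ZT0, 0.93 with ZT12 and 0.886 with ZT18. Genes are not independent replicates, so this describes the tables only. What was particular to ZT6 was tested as the diet minus control difference at ZT6 minus the mean of that difference at the other 3 times, called the ZT6 offset here. The offset was called for 81 genes (0.361% of those tested, edgeR), of which 24 were positive (0.107%) and 57 negative (0.254%). It reached an unadjusted p under 0.05 in 2314 genes. Taken against single times, 67 genes were called against ZT0 (0.299%), of which 42 were negative (0.187%). Against ZT12, 17 were called (0.0759%), 2 positive (0.00892%) and 15 negative (0.0669%). Against ZT18, 206 were called (0.919%), 97 of them negative (0.433%). These tests share the ZT6 libraries and are not independent of each other. For all 81 genes the ZT6 difference lay outside the range of the differences at the other 3 times. The genes were selected by the distance of that difference from the mean of the other 3, which favours this outcome. Of the 81, 42 were also called against ZT0, 17 against ZT12 and 65 against ZT18. In all 24 positive genes the ZT6 control mean was below the mean of every other control group, and in 48 of 57 negative genes it was above. Those means come from the libraries of the test itself and are given as a description.

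The count of 81 moved with single libraries. It was 35, 43 and 45 with diet ZT6 replicates 3, 2 or 1 left out and 38 without control ZT6 replicate 2. It was 50 to 52 without diet ZT12 replicate 3, diet ZT18 replicate 2 or control ZT12 replicate 2. Without control ZT0 replicates 2 or 3 it was 226 and 152. The balance of signs moved as well, so the larger number of negative genes belongs to the settings used here. Positive and negative calls numbered 534 and 236 without the filter on low counts, 187 and 179 with DESeq2, and 137 and 89 without control ZT0 replicate 2. With control ZT0 replicate 2 and control ZT18 replicate 1 both left out they numbered 147 and 95. Against ZT12 the same happened, with 215 positive and 173 negative calls without the filter, 64 and 35 without control ZT0 replicate 2, and 56 and 37 with both libraries left out.

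**Figure D2:**
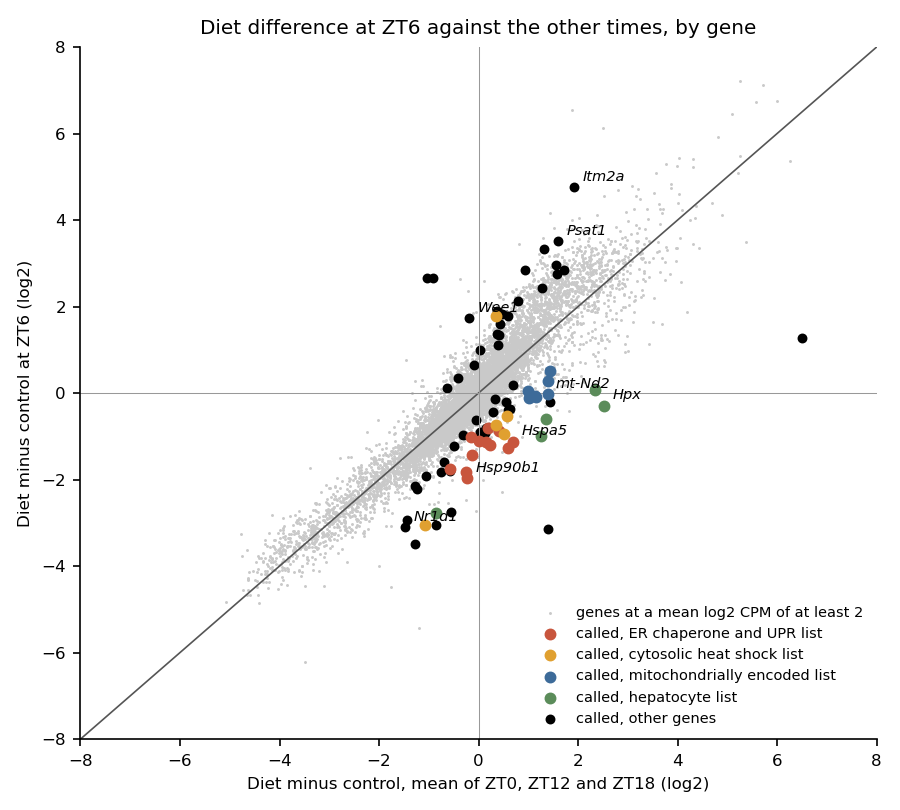
Log2 difference of diet minus control at ZT6 (vertical) against the mean of the same difference at ZT0, ZT12 and ZT18 (horizontal), 1 point a gene. Grey points are the 10874 genes whose mean log2 CPM reached 2, and coloured points the 81 genes whose ZT6 offset was called. ER chaperone, mitochondrial and hepatocyte genes lie below the line of equal differences, and Psat1, Wee1 and Itm2a above it.

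Of the 22 tested genes of the ER chaperone and UPR list, 15 were lower under diet at ZT6 and 3 higher, with a median log2 difference of -1.07. The list's median was 0.05 at ZT0, 0.12 at ZT12 and -0.02 at ZT18. The ZT6 offset was negative and called for 12 of the 22, positive for none, where 0.254% of all tested genes were negative and called. The median offset was -0.93, against 0.05 over all tested genes. The count was 9 to 14 in every other setting tried, and 9 without diet ZT6 replicate 1 or control ZT6 replicate 2. Summed over the list, the level was 3928, 3955 and 3835 CPM in diet libraries at ZT6, against 8632 and 9021 CPM in control libraries. At the other times it ran from 3611 to 5421 CPM in 9 diet libraries and from 3400 to 5583 CPM in 8 control libraries. The control libraries of ZT6 thus stood above all other libraries, and the diet libraries of ZT6 lay within the range of the diet libraries of other times.

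Among the lower members were several whose promoters hold the ER stress response element (ERSE), the sequence at which ATF6 acts with the factor NF-Y. The element was searched as CCAAT, then any 9 bases, then CCACG, on both strands of RefSeq promoters of build GRCm38.p6, from 250 bases before to 50 after each start. It occurred in 39 of 32851 promoters, or 0.119%. It occurred in 7 of the 20 tested list members that had a promoter entry. Of 81 genes with a called offset, 57 had an entry and 6 held the element. The 250 bases before the RefSeq start of these 6 genes are printed because they carry the element, which most called genes with an entry lacked. Canx, among the 6, is not a member of the ER chaperone and UPR list. Capitals mark the element, read 5′ to 3′ on the strand of the gene.
Hspa5, chr2:34771840-34772089, plus strand: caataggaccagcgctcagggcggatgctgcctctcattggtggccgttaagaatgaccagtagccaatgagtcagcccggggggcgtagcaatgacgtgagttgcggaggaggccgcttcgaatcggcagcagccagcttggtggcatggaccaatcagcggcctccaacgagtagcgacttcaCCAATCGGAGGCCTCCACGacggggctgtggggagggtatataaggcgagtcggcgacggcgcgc
Hsp90b1, chr10:86705445-86705694, minus strand: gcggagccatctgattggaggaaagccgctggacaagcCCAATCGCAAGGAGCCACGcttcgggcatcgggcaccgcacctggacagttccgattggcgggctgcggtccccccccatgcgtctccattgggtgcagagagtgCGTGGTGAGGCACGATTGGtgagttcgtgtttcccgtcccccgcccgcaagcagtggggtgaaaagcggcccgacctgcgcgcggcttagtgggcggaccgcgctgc
Pdia6, chr12:17266339-17266588, plus strand: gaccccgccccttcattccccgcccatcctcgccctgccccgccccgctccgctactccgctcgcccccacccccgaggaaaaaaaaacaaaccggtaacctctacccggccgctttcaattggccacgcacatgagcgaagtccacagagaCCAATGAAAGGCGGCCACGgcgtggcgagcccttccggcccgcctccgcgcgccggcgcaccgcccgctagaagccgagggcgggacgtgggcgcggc
Calr, chr8:84846932-84847181, minus strand: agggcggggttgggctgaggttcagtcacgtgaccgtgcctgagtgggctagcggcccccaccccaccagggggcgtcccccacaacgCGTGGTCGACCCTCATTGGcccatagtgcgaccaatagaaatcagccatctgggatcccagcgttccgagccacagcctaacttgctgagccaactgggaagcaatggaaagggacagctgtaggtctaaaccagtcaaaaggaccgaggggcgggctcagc
Canx, chr11:50325674-50325923, minus strand: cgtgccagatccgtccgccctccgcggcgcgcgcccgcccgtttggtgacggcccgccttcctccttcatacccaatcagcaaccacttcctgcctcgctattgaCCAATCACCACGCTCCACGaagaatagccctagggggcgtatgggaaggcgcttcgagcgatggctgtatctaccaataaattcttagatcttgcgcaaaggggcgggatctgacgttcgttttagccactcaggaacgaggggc
Creld2, chr15:88819396-88819645, plus strand: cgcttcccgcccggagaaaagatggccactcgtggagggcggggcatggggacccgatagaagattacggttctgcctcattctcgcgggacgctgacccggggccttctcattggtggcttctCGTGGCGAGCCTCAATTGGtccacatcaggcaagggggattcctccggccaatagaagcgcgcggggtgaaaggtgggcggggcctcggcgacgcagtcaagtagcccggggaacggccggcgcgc
In Calr and Creld2 the element lies on the opposite strand, and Hsp90b1 holds one in each orientation. Over all 24 tested genes with the element, 6 had a negative called offset and none a positive one, and the median was -0.66, against 0.03 over the 14420 tested genes with a promoter entry. A match is a description and not a measured binding site. Other chaperone genes of the list, such as Sdf2l1 and Pdia3, had negative called offsets without these letters in the window.

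Hspa5, which encodes BiP, the main chaperone of the ER and a sensor of the UPR, lies at chr2:34771970-34777547. It had 809, 808 and 752 CPM in diet libraries, against 1905 and 1540 CPM in control libraries at ZT6. Both control libraries were far above every diet library. At the other times the diet means were 943, 789 and 1246 CPM at ZT0, ZT12 and ZT18, against control means of 501, 393 and 1103 CPM. The log2 difference was -1.12 ± 0.11 SE at ZT6, against 0.91, 1.00 and 0.18 at ZT0, ZT12 and ZT18, so the sign was negative at ZT6 and positive at the other times. Its ZT6 offset of -1.82 ± 0.12 SE had the smallest adjusted p of all genes (edgeR, 1.12e-07) and was called against each of the other times.

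Hsp90b1 encodes GRP94, the HSP90 of the ER. It had 416, 400 and 385 CPM in diet libraries, against 1376 and 1759 CPM in control libraries, with no overlap. Over the other times all 9 diet libraries lay between 372 and 572 CPM and all 8 control libraries between 344 and 752 CPM. The log2 difference at ZT6 was -1.97 ± 0.14 SE and the offset -1.74 ± 0.16 SE (edgeR, adjusted p = 6.72e-06). Pdia6, a disulphide isomerase, had 275, 262 and 262 CPM in diet libraries, against 868 and 1031 CPM in control libraries. Its control libraries at other times reached 502 CPM at most, and its offset was -1.59. Pdia3, the isomerase that works with calreticulin on glycoproteins, had 461, 425 and 409 CPM in diet libraries, against 1334 and 1599 CPM in control libraries. It was lower under diet at the other times too, by 0.49 to 0.62 on the log2 scale, and its offset was -1.19.

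Calr, which encodes calreticulin, had 105, 98.8 and 98 CPM in diet libraries, against 244 and 295 CPM in control libraries, and an offset of -1.28. Canx, which encodes calnexin, its membrane-bound relative, had 235, 239 and 243 CPM in diet libraries, against 512 and 603 CPM in control libraries, and an offset of -0.72. The Canx call was lost in 18 of 29 other settings. Canx stands outside the list, as do Magt1 of the glycosylation complex, Selenos of ER degradation and Spcs2 of signal peptide cleavage, with offsets of -1.02, -0.52 and -0.48. The calls of Selenos and Spcs2 were lost in 22 and 23 of 29 settings. These 4 genes were chosen after their values were seen.

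Among small ER factors, Sdf2l1, a BiP cofactor, had 38, 33.9 and 35.6 CPM in diet libraries, against 71.9 and 101 CPM in control libraries. Its offset was -1.86, and diet was higher at the other times, by 0.24 to 0.97 on the log2 scale. Manf and Creld2, secreted proteins induced by ER stress, had offsets of -1.27 each. Pdia4, Dnajb11, Dnajb9 and Hyou1, an isomerase, 2 BiP co-chaperones and a nucleotide exchange factor, had called offsets of -1.12, -0.88, -0.99 and -1.43. Dnajb9 and Hyou1 rested on control libraries that differed from each other: Dnajb9 had 178 and 102 CPM there, and Hyou1 had 18.8 and 33.9 CPM. Their calls were lost in 14 and 12 of 29 other settings. Of the 12 called members, 8 were also called against each other time taken alone: Hspa5, Hsp90b1, Pdia6, Pdia3, Calr, Sdf2l1, Creld2 and Manf.

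The remaining 10 list members had no called offset. Xbp1, the spliced factor of the UPR, had 300, 300 and 282 CPM in diet libraries, against 463 and 453 CPM in control libraries. It was lower at ZT6 (log2 difference -0.64, edgeR adjusted p = 0.00212, lost with library size alone as the scaling), but its offset of -0.75 missed the threshold (adjusted p = 0.0653). Dnajc3, an inhibitor of the kinase PERK, was lower at each of the 4 times, and its offset of -0.65 had an adjusted p of 0.0935 by edgeR. Atf4, a factor of the PERK branch, rose at ZT6 by 0.47 on the log2 scale with an offset of 0.05, and its target Ddit3 rose by 0.67 with an offset of 0.01, though not without diet ZT6 replicate 2 or control ZT6 replicate 2. Edem1, which feeds misfolded glycoproteins to degradation, rose by 0.89 with an offset of 0.02. Herpud1, another degradation factor, had 306, 325 and 333 CPM in diet libraries, against 357 and 331 CPM in control libraries, and was called in neither test. Trib3 was lower at ZT6 (log2 difference -2.09) without a called offset, and Chac1, Asns and Syvn1 were called in neither.

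Marker sums of the ZT6 libraries are given here beside the ER genes. The 30 endothelial markers summed to 3315, 5323 and 4691 CPM in diet libraries at ZT6, against 71860 and 68320 CPM in control libraries. Control libraries of other times ran from 36120 to 63590 CPM for the same sum, below both ZT6 control libraries. Endothelial markers were not alone in this. The 20 quiescent stellate genes summed to 522 and 540 CPM in the ZT6 control libraries, above the 208 to 474 CPM of control libraries of other times. The 16 angiocrine genes summed to 10720 and 10340 CPM there, above 5413 to 9696 CPM. The 21 B and plasma cell genes, which include those of antibody-secreting cells, summed to 1294 and 1418 CPM in the ZT6 control libraries, within the 955 to 1649 CPM of control libraries of other times. The part of these sums in the ER pattern was not tested.

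**Figure D3:**
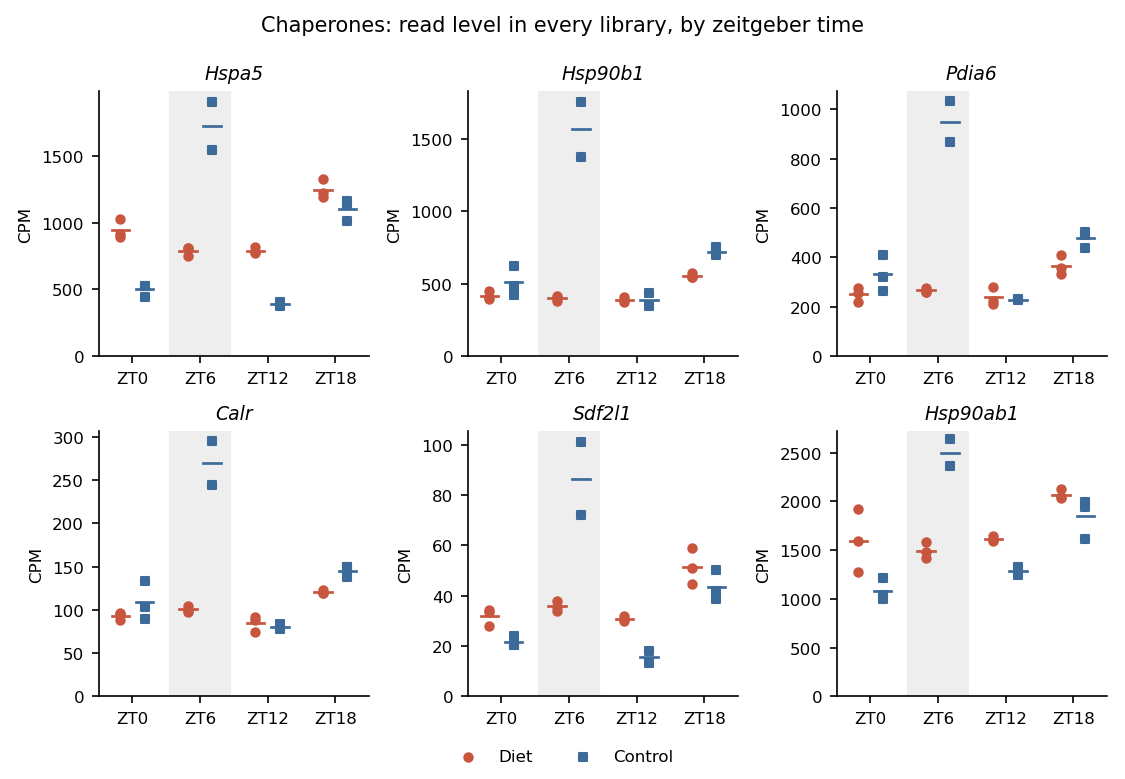
CPM in every library for 5 ER chaperone genes and for Hsp90ab1, at ZT0, ZT6 (shaded), ZT12 and ZT18, with diet libraries as circles and control libraries as squares; bars are group means. At ZT6 both control libraries lie above all other libraries of the gene, while the diet libraries of ZT6 lie below both of them.

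In the cytosol, Hsp90ab1, the constitutive cytosolic HSP90, had 1584, 1478 and 1420 CPM in diet libraries, against 2636 and 2360 CPM in control libraries. Its offset was -1.09 ± 0.15 SE (edgeR, adjusted p = 0.00136), with diet higher by 0.16 to 0.56 on the log2 scale at the other times. Stip1, which hands clients from HSP70 to HSP90, had 117, 115 and 133 CPM in diet libraries, against 258 and 209 CPM in control libraries, and an offset of -1.46. St13, an HSP70 cofactor, and Hikeshi, which carries HSP70 into the nucleus, had offsets of -0.94 and -1.06. Ahsa1, Fkbp4 and Ptges3, 3 further HSP90 cofactors chosen after their values were seen, had offsets of -1.08, -1.01 and -0.72. Hspb1, a small heat shock protein, had 13.8, 14.4 and 8.08 CPM in diet libraries, against 86.9 and 114 CPM in control libraries, and an offset of -1.97.

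Dnajb1, the inducible HSP40, had 835, 913 and 815 CPM in diet libraries, against 269 and 227 CPM in control libraries. Its offset was positive (1.43, edgeR adjusted p = 0.0388), a call that was lost in 14 of 29 other settings. Hspa1a, an inducible HSP70, had 288, 300 and 254 CPM in diet libraries, against 92.5 and 99.6 CPM in control libraries, with an uncalled offset of 1.10. Over the 21 genes of the cytosolic heat shock list, 9 rose and 5 fell at ZT6, beside 14.8% and 15.3% of all tested genes. Of their offsets, 1 was called positive and 4 negative, beside 0.107% and 0.254% of all tested genes. At an unadjusted p under 0.05 by edgeR, 7 offsets were positive and 4 negative. Without the filter on low counts edgeR called 6 positive and 4 negative. St13, Hikeshi, Fkbp4 and Ptges3 stand outside the list. The list's median offset was 0.11, with Hsp90ab1, Hspb1, Stip1 and Ahsa1 negative and Dnajb1 positive.

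Transcripts of the mitochondrial genome encode subunits of the respiratory chain. Only 9 of 13 such genes in the list had any read in the 22 libraries, and why the others had none was not tested. The filter on low counts left 8, which the sums below cover. Of these, 7 had a negative called offset, with a median over the 8 of -1.17. Their median diet difference was -0.05 at ZT6, against 1.26, 0.86 and 1.54 at ZT0, ZT12 and ZT18. With library size alone as the scaling the ZT6 median was 0.21. mt-Nd2, a subunit of complex I of the respiratory chain, had 434, 430 and 410 CPM in diet libraries, against 475 and 391 CPM in control libraries. The groups overlapped at ZT6. At the other times mt-Nd2 averaged 1114, 868 and 1729 CPM in diet libraries, against 441, 398 and 531 CPM in control libraries. Its offset was -1.42 ± 0.23 SE (edgeR, adjusted p = 0.00618).

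The other called members were complex I subunits mt-Nd1, mt-Nd4, mt-Nd5 and mt-Nd6, the complex IV subunit mt-Co1 and mt-Cytb of complex III, with offsets of -1.14, -1.24, -1.11, -0.92, -0.96 and -1.21. mt-Nd3, the remaining one, lay near 1 CPM at ZT6 and had an uncalled offset of -1.57. The mitochondrial glutamine tRNA gene mt-Tq, at 7.99, 8.9 and 8.41 CPM in diet libraries and 8.8 and 6.64 CPM in control libraries, had an offset of -2.21. Summed over the list, the level was 9822, 10100 and 9939 CPM in diet libraries at ZT6, below all 9 diet libraries of other times, which ran from 14590 to 46240 CPM. The control libraries had 11620 and 8197 CPM at ZT6 and 9344 to 14200 CPM at other times. Of the 8 offsets, 1 was called without control ZT6 replicate 1, 2 without any 1 diet library of ZT6, and 3 with library size alone as the scaling.

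**Figure D4:**
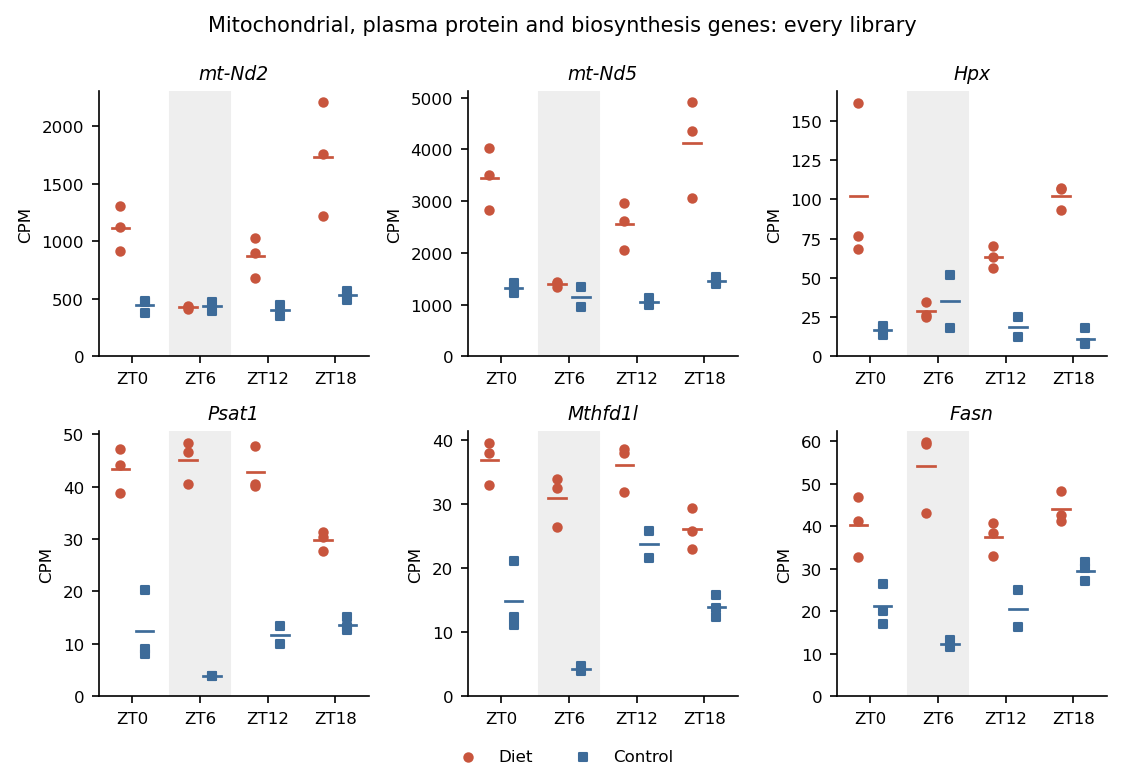
CPM in every library for 2 mitochondrially encoded genes, the plasma protein gene Hpx, and the biosynthesis genes Psat1, Mthfd1l and Fasn, by time, with diet libraries as circles and control libraries as squares; bars are group means and ZT6 is shaded. For mt-Nd2 and mt-Nd5 the diet libraries of ZT6 lie below all other diet libraries, and for Psat1, Mthfd1l and Fasn the control libraries of ZT6 lie below all other libraries.

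Some plasma protein genes of hepatocytes also had negative offsets. Of 29 tested hepatocyte genes, 6 rose and 3 fell at ZT6, and 5 offsets were called, all negative. Over all tested genes, 30.1% were called at ZT6, a share near that of the list, and 0.254% had a negative called offset. Hpx, which encodes the haem carrier haemopexin, had 26.1, 34.8 and 24.9 CPM in diet libraries, against 18.1 and 52 CPM in control libraries. The groups overlapped at ZT6, whereas diet was higher by 1.78 to 3.19 on the log2 scale at the other times, and the offset was -2.81. Hp (haptoglobin), Serpina1a, Serpina3k and Fgb (a fibrinogen chain) had offsets of -2.27, -2.23, -1.91 and -1.94. Without control ZT6 replicate 2, no offset of the list was called, and its median was -0.06 in place of -0.46. Without diet ZT6 replicates 1, 2 or 3, the list had 3, 1 and 1 called offsets. Control ZT6 replicate 2 held 1254 CPM summed over the list, against 690 CPM in control replicate 1 and 2236, 1765 and 1322 CPM in diet libraries. Alb, the albumin gene, did not follow, with 673, 450 and 326 CPM in diet libraries, against 93.2 and 146 CPM in control libraries, and an offset of 0.06.

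The same control library stood apart for Kupffer cell genes. Clec4f, a receptor restricted to Kupffer cells, had 308, 431 and 170 CPM in diet libraries, against 184 and 689 CPM in control replicates 1 and 2. The 20 Kupffer identity genes summed to 2809, 3811 and 1821 CPM in diet libraries, against 2832 and 5454 CPM. None of them rose and 4 fell at ZT6, with a median of -0.15, where 14.8% of all tested genes rose and 15.3% fell. The share that fell was thus near that of all tested genes. Without control replicate 2, 5 rose and 3 fell, and without the filter on low counts 3 rose and 8 fell. The median was 1.02 without control replicate 2, 0.11 without diet replicate 3, 0.18 among genes at a mean CPM of at least 5 and 0.09 with library size alone as the scaling. All 20 offsets were below 0 and none was called by edgeR, with 11 at an unadjusted p under 0.05. DESeq2 called 1 of them, edgeR without the filter on low counts 12, and edgeR without control ZT6 replicate 1 called 5. Their median was -1.15, and -0.07 without control replicate 2. The falls included Cd163, a haemoglobin scavenger receptor (log2 difference -4.00), and the iron exporter Slc40a1 (-1.80). For Cd163 the control libraries of ZT6 differed widely, from 18.2 to 80 CPM, while control libraries of other times had 7.33 to 18.5 CPM.

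Genes with positive offsets included enzymes of serine, folate and lipid synthesis, each with its lowest control mean at ZT6. Psat1, which makes serine, lies at chr19:15904678-15947337 and had 48.3, 46.7 and 40.5 CPM in diet libraries, against 3.96 and 3.96 CPM in control libraries. Its control libraries at other times had 7.98 to 20.3 CPM. The log2 difference was 3.51 ± 0.32 SE at ZT6, against 1.80, 1.87 and 1.13 at ZT0, ZT12 and ZT18, and the offset was 1.91 (edgeR, adjusted p = 0.00887). Mthfd1l, a mitochondrial enzyme of folate metabolism, at chr10:3973118-4167081, had 32.5, 34 and 26.4 CPM in diet libraries, against 3.96 and 4.69 CPM in control libraries. It was the only positive gene called against each other time taken alone, with an overall offset of 1.90.

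Mri1, of the methionine salvage pathway, and Pcyt2, of phosphatidylethanolamine synthesis, had offsets of 1.18 and 0.93. Fasn, the fatty acid synthase, had 59.3, 59.9 and 43.3 CPM in diet libraries, against 11.5 and 13.3 CPM in control libraries, and an offset of 1.34. Sc5d, a late enzyme of cholesterol synthesis, had an offset of 0.73, the only one called among 24 cholesterol genes. Of 16 fatty acid synthesis genes, 4 rose and 4 fell at ZT6, beside 14.8% and 15.3% of all tested genes. Their median log2 difference was 0.17, against 0.08 over all tested genes. Fads1, a desaturase, had a log2 difference of -1.62 and Thrsp -3.90, and Fasn was the only member with a called offset. Psat1, Mri1, Pcyt2 and Fasn lost the call without control ZT6 replicate 2, and Psat1, Pcyt2 and Fasn also without replicate 1. Fasn lost it without diet ZT6 replicates 1 or 2 and Pcyt2 without diet ZT6 replicate 3. Sc5d held its call in 12 of 29 other settings.

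Further positive offsets lay in lymphoid and other genes. Itm2a, a membrane protein of activated T cells, had 24.2, 18.1 and 27.6 CPM in diet libraries, against 0.989 and 0.726 CPM in control libraries, and an offset of 2.83. The monocyte and T cell antigen gene Ly6c2, the NK receptor gene Klrb1c and Rasal3, a Ras regulator of blood cells, had offsets of 1.14, 1.36 and 1.40, and lost the call in 14, 20 and 15 of 29 other settings. The median offset was 1.04 over 28 T cell genes with none called by edgeR (16 at an unadjusted p under 0.05, and 2 called by DESeq2) and 1.10 over 22 NK genes with 1 called. Without the filter on low counts edgeR called 21 T cell and 15 NK genes, all positive. Without control ZT0 replicates 2 or 3 it called 4 and 3 T cell genes, and 2 and 1 NK genes. T cell markers summed to 5711, 6099 and 6944 CPM in diet libraries, against 948 and 790 CPM in control libraries. Control libraries of other times had 825 to 3359 CPM for that sum. Lrrk1, Znrf3 (a ubiquitin ligase that dampens Wnt signalling), Adamts10 and Wdr6 had offsets of 0.98, 1.52, 0.75 and 0.70, with the calls of Znrf3 and Wdr6 lost in 12 of 29 settings each. Mir6236, at 0.76, was the same in sign, with 255, 277 and 251 CPM in diet libraries, against 269 and 212 CPM in control libraries.

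On the negative side, several further genes peaked in the ZT6 control libraries. P4ha1, a prolyl hydroxylase needed for collagen folding in the ER, lies at chr10:59323296-59373304. It had 21.7, 20.6 and 19.2 CPM in diet libraries, against 230 and 228 CPM in control libraries, and its control libraries at other times had 41.5 to 116 CPM. Its offset was -2.20 ± 0.34 SE (edgeR, adjusted p = 0.00352). Jak1, a cytokine receptor kinase, had 479, 557 and 564 CPM in diet libraries, against 1908 and 2106 CPM in control libraries, and an offset of -0.86. Pim3, a kinase, had 68.4, 88.5 and 78.4 CPM in diet libraries, against 379 and 346 CPM in control libraries, and an offset of -0.96. Edn1, Lrg1 and Gadd45g, chosen after their values were seen, had offsets of -2.19, -2.20 and -1.23; Lrg1 had 71 and 219 CPM in the control libraries and lost the call in 18 of 29 settings. Cxcl12, the chemokine that holds CXCR4-bearing cells, differed through the diet libraries, with 14.5, 16.4 and 17 CPM at ZT6, below the 22.6 to 55.5 CPM of diet libraries at other times. Its control libraries at ZT6 had 15.3 and 21.8 CPM, and its offset was -1.65, a call lost in 9 of 29 settings, each diet ZT6 library left out among them.

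Clock genes changed in both directions at ZT6, and 2 of them had a called offset. Nr1d1, which encodes the repressor REV-ERBα, lies at chr11:98767932-98775333. It had 48.4, 55.1 and 37.7 CPM in diet libraries, against 413 and 393 CPM in control libraries. At ZT0, ZT12 and ZT18 it averaged 23.2, 34.7 and 17.7 CPM in diet libraries, against 39.3, 262 and 29.6 CPM in control libraries. ZT6 was thus the highest time in both groups, with a log2 difference of -3.10 ± 0.24 SE and an offset of -1.62 ± 0.27 SE (edgeR, adjusted p = 0.00644). The difference at ZT12 was -2.92, and Nr1d1 was called against ZT0 and ZT18 but not against ZT12. Wee1, a clock-driven kinase that holds cells before mitosis, had 23.2, 19.8 and 19 CPM in diet libraries, against 7.55 and 4.91 CPM in control libraries. Its control means were 8.7, 42.4 and 30.4 CPM at ZT0, ZT12 and ZT18, and its offset was 1.91 ± 0.30 SE (edgeR, adjusted p = 0.00414), lost without control ZT6 replicate 2.

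Of 11 clock repressors, 5 rose and 3 fell at ZT6. Nr1d2, the other REV-ERB gene, had 31.6, 40.2 and 33.4 CPM in diet libraries, against 84.3 and 90.5 CPM in control libraries, a log2 difference of -1.32. Per3 fell by 0.83 on the log2 scale, a call lost with library size alone as the scaling and without control ZT6 replicate 1. Per1 rose, with 111, 100 and 94.8 CPM in diet libraries, against 38.4 and 25.1 CPM in control libraries. Bhlhe40, which encodes the repressor DEC1, rose by 2.08 on the log2 scale, Nfil3, which opposes DBP at its sites, by 3.13, Ciart by 1.51 and Cry1 by 0.74. The Cry1 call was lost without diet ZT6 replicates 1 or 3 or control ZT6 replicate 1, and the Ciart call without control ZT6 replicate 2. Per2 had 4.68, 5.92 and 3.5 CPM in diet libraries, against 6.97 and 7.81 CPM in control libraries, and was not called, nor were Cry2 and Bhlhe41.

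Of 6 clock output genes, 3 rose and 2 fell. Dbp, which is driven directly by the core clock, had 10.4, 13.1 and 11.2 CPM in diet libraries, against 47.4 and 59.9 CPM in control libraries, a log2 difference of -2.22. Tef, its relative, fell by 1.23, and Hlf was not called. The outputs Wee1, Usp2 and Tsc22d3 rose by 1.73, 1.17 and 0.92, with the Usp2 call lost in 4 of 29 settings. Of 6 clock activators, 2 rose and 1 fell. Rora, a receptor that raises Bmal1, rose by 1.27, and Clock fell by 0.96. Arntl, which encodes BMAL1, had 22.8, 14 and 24.1 CPM in diet libraries, against 26.9 and 19.8 CPM in control libraries, and was not called (log2 difference -0.20). Npas2 and Arntl2 were not called either. The offsets of all clock genes other than Nr1d1 and Wee1 missed the threshold, from -0.89 for Bhlhe41 to 2.42 for Npas2.

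**Figure D5:**
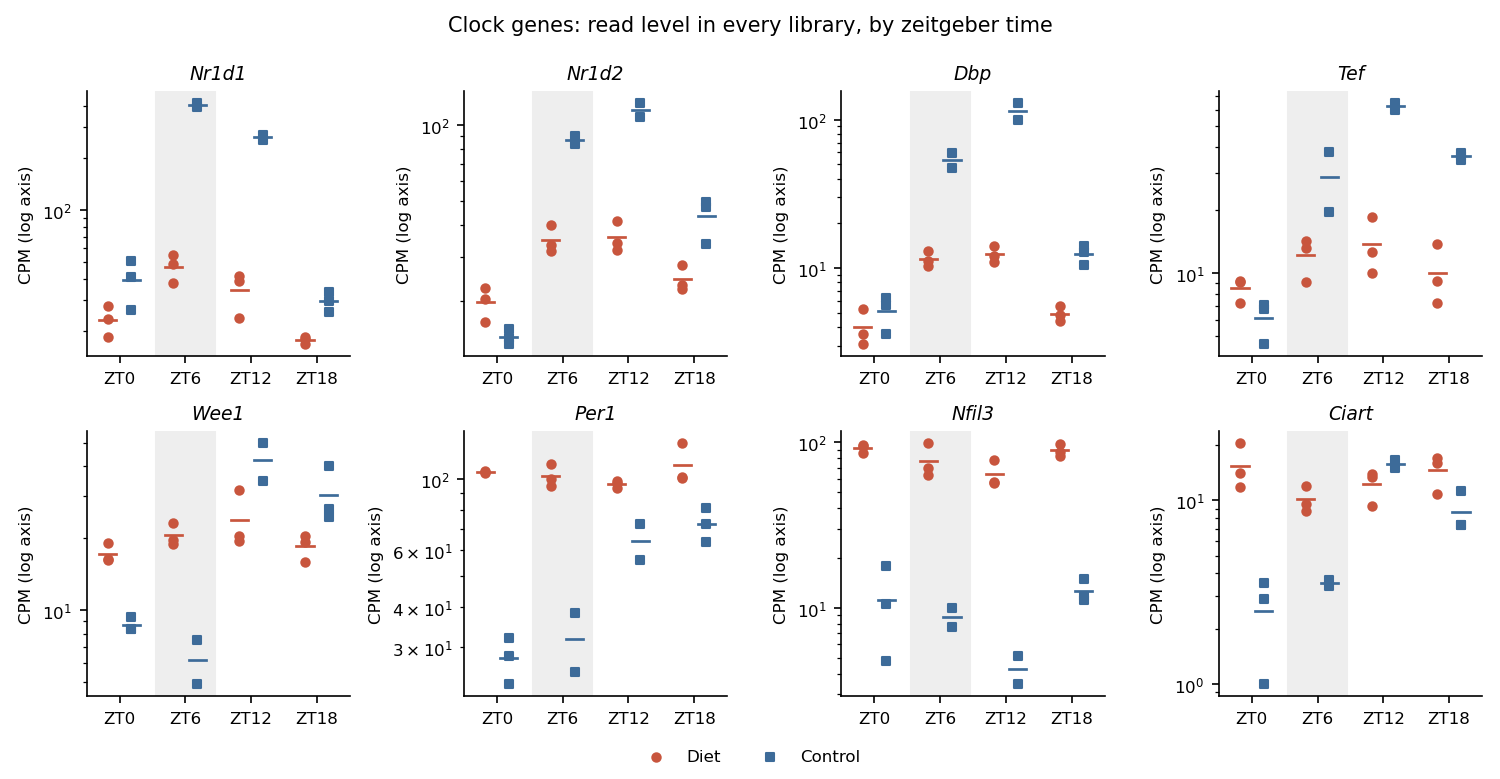
CPM on a log axis in every library for 8 clock genes, by time, with diet libraries as circles and control libraries as squares; bars are group means and ZT6 is shaded. Nr1d1 and Dbp are lower in all 3 diet libraries than in both control libraries at ZT6, and Wee1, Per1, Nfil3 and Ciart are higher.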

How the data were processed

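Total RNA was sequenced from liver cells, and the authors deposited a table of HTSeq counts per gene, per the labels. Reads had been aligned with STAR 2.7.9a to GRCm38 (mm10), per the submitters' processing notes. The gene annotation and the strand setting of the counting were not given in the sources used here, so reads of antisense or overlapping partners cannot be assigned to one of them. A table of normalised values was not used. Members and gene lists were chosen with earlier results of these data known.

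The counts were analysed as deposited in R 4.3.3 with edgeR 4.0.16 (limma 3.58.1). Genes passing filterByExpr (22409 of 55367) were scaled by TMM and fitted with glmQLFit in 1 model of 8 groups of diet and time, with all 22 libraries. Comparisons were tested with glmQLFTest and Benjamini-Hochberg adjustment (threshold 0.05), and the standard error is the absolute log2 difference divided by the square root of F. A prior count of 2 was used for log2 CPM. The procedure was tested on simulated data. DESeq2 1.42.0, other scalings and filters, a replicate block and each library left out were the alternatives. Depth ranged from 19754805 to 41665623 counts per library, and with 2 to 3 libraries a group their number limits the precision.

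Genes were named by rule: the 10 largest changes in each direction without overlap at ZT6, the 15 smallest p-values in each direction of the ZT6 offset, all clock genes, and up to 3 and 2 leading members of each other list, with markers of the labelled cells. This gave 194 genes, and 19 more with a called offset were named after their values were seen. Coordinates are from GENCODE M21 and promoters from RefSeq, both on GRCm38. Replicate numbers were shared by 2 pairs at ZT6, whose deviations correlated at 0.021 and -0.011, so numbers were not taken as pairs.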

Additional observations from a re-analysis of the deposited data

Results flagged for a closer look

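Each of these genes had a diet difference at ZT6 that differed from the mean of the other times in edgeR's test of the difference itself, at an adjusted p under 0.05. Values are log2 offsets, and groups of 2 or 3 libraries allowed no search for single outlying libraries. No cause was tested for any of them.

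Among ER genes the offsets were -1.82 for Hspa5, -1.74 for Hsp90b1, -1.59 for Pdia6, -1.19 for Pdia3, -1.12 for Pdia4 and -1.28 for Calr. Canx followed at -0.72, Sdf2l1 at -1.86, Manf at -1.27, Creld2 at -1.27 and Hyou1 at -1.43. Dnajb9 had -0.99, Dnajb11 -0.88, Magt1 -1.02, Selenos -0.52 and Spcs2 -0.48. Among cytosolic chaperone genes the offsets were -1.09 for Hsp90ab1, -1.97 for Hspb1, -1.08 for Ahsa1, -1.46 for Stip1 and -1.01 for Fkbp4. St13 had -0.94, Ptges3 -0.72 and Hikeshi -1.06, while Dnajb1 had 1.43.

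Mitochondrially encoded genes had offsets of -1.14 (mt-Nd1), -1.42 (mt-Nd2), -1.24 (mt-Nd4), -1.11 (mt-Nd5), -0.92 (mt-Nd6), -0.96 (mt-Co1), -1.21 (mt-Cytb) and -2.21 (mt-Tq). Plasma protein genes had -2.81 (Hpx), -2.27 (Hp), -2.23 (Serpina1a), -1.91 (Serpina3k) and -1.94 (Fgb).

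Biosynthesis genes had 1.91 (Psat1), 1.90 (Mthfd1l), 1.18 (Mri1), 0.93 (Pcyt2), 1.34 (Fasn) and 0.73 (Sc5d). The clock genes Nr1d1 and Wee1 had -1.62 and 1.91. Other positive offsets were 2.83 for Itm2a, 1.14 for Ly6c2, 1.36 for Klrb1c and 1.40 for Rasal3. Lrrk1 had 0.98, Znrf3 1.52, Adamts10 0.75, Wdr6 0.70 and Mir6236 0.76. Other negative offsets were -2.20 for P4ha1, -2.19 for Edn1, -0.86 for Jak1, -0.96 for Pim3 and -1.65 for Cxcl12. Lrg1 had -2.20 and Gadd45g -1.23. S100a8, a neutrophil alarmin, had -5.23, and its call was lost in 16 of 28 other settings. All control libraries at ZT0 had 0 reads of it. Its fitted value thus depends on the default prior count of the edgeR fit, which is not the one used for log2 CPM.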

How the results depend on the processing

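The count of genes called between diet and control at ZT6 was 6752 and ran from 4890 to 7725 over all settings, within 1.5 times of the main count. Counts of ZT6 offsets moved more. Without a filter on low counts they were 770 against the mean of the other times, 846 against ZT0, 388 against ZT12 and 1119 against ZT18. DESeq2 called 366, 370, 128 and 936 for the same comparisons. With control ZT0 replicate 2 and control ZT18 replicate 1, which stood apart from their groups, both left out, the counts were 242, 117, 93 and 742. Among genes at a mean CPM of at least 5 they were 114 against ZT0, 32 against ZT12 and 372 against ZT18. With the replicate block the count against the mean of the other times was 47, and the counts against ZT0, ZT12 and ZT18 were 61, 18 and 181. Leaving out 1 library at a time gave 35 to 226 against the mean, 28 to 111 against ZT0, 10 to 99 against ZT12 and 35 to 812 against ZT18. The highest of each came without control ZT0 replicate 2. The cause was not tested. Library size alone as the scaling moved the median of all genes by 0.263 at ZT6 and by 0.118 in the offset (log2). It put 65 of 98 calls against ZT0 above 0, where the main scaling put 25 of 67, and 140 of 209 against ZT18, where the main scaling put 109 of 206. No single-gene value that was called changed sign, but the balance of positive and negative offset calls turned in several settings: positive calls were 534 of 770 without the filter, 147 of 242 with both libraries left out and 137 of 226 without control ZT0 replicate 2. Of the single-gene values, 7015 at ZT6 and 6461 offsets stayed on the same side of the threshold, 37 and 368 no longer passed, and 96 and 80 newly passed. The offsets of Hspa5, Hsp90b1, Pdia6, Pdia3, Calr, Sdf2l1, Manf, Creld2, Hsp90ab1, Stip1, Mthfd1l, P4ha1, Jak1, Nr1d1 and mt-Nd2 were called in all 29 alternatives. At ZT6, Rora, Tef and Ciart were not called without control ZT6 replicate 2, nor Sc5d without control ZT6 replicate 1; Cry1 was lost in 3 settings, Per3 in 2 and Usp2 in 4. Offset calls lost most often were Spcs2 (23 settings), Selenos (22), Klrb1c (20), Canx (18), Lrg1 (18), mt-Nd6 (17), mt-Co1 (17), Sc5d (17) and S100a8 (16 of 28).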

Other observations

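Genes of lipid-laden macrophages and of myeloid cells, not described above, also differed at ZT6. Of 18 lipid-associated macrophage genes, 11 rose and 6 fell under diet, with a median log2 difference of 2.39. Their summed level was nonetheless lower under diet, with 13780, 13700 and 9771 CPM in diet libraries, against 15860 and 18300 CPM in control libraries. Spp1, which encodes osteopontin, also stands on the lists for bile duct and for activated stellate cells and fibroblasts. It had 4128, 2960 and 1813 CPM in diet libraries, against 376 and 438 CPM in control libraries. All diet libraries lay above both control libraries, with a log2 difference of 2.87. Mmp12, a macrophage elastase, differed by 5.37 on the log2 scale. Of 20 dendritic cell genes, 15 rose and 4 fell, among them Itgax (log2 difference 3.79). Of 22 chemokine genes, 9 rose and 3 fell, with Ccl3, which draws T cells and monocytes, at 4.40. These counts stand beside 14.8% of all tested genes that rose and 15.3% that fell. The share of chemokine genes that fell was near the latter.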
